A study of Rattus norvegicus with 6 samples.

Results

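C/D box small nucleolar RNAs (snoRNAs) were followed here through their short fragments in rat sertoli cells treated with 4-nonylphenol (4-NP). The members were all rows of the small RNA count table that are typed as snoRNA and carry the name SNORD, which is the gene symbol of this class. There were 100 such rows among the 322 snoRNA rows and the 2363 rows of the table. Each row is an Rfam family, so a row can hold the reads of several gene copies, as SNORD113/SNORD114 and SNORD55/SNORD39 do by name. The rule for the members uses only type and name, but it was set with earlier results of these data known.

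C/D box snoRNAs are short nuclear RNAs, most of which are cut out of the introns of host genes after splicing. They bind fibrillarin, NOP56, NOP58 and SNU13 and guide the 2′-O-methylation of ribosomal RNA, and a few of them guide the methylation of spliceosomal RNA. Others, such as the clusters SNORD113/SNORD114 and SNORD115 in imprinted regions, have no established target and are called orphans. The host genes are often ribosomal protein and translation factor genes, or non-coding genes such as Gas5 and Snhg1. Whole C/D box snoRNAs are longer than the RNA that was sequenced here, so the reads come from pieces of them.

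Primary sertoli cells, the somatic nurse cells of the seminiferous tubule, had been isolated from Sprague-Dawley rats of 5 to 10 days and were labelled P2. No genetic change is named in either group. The 4-NP group (3 samples) had received 0.5 mM 4-NP, a xenoestrogen of the plastics industry, for 24 h, and the control group (3 samples) had received none. RNA of 18 to 30 nt was cut from a gel and sequenced. No label says that the samples came from separate cultures or animals, so all p-values measure only the spread between these samples, which may be technical. In bulk RNA of this kind, fewer cells of a type and less RNA per cell cannot be told apart.

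The 3 control samples had 22291892 to 23426742 reads on mature miRNAs and the 3 4-NP samples 20023200 to 22130929. These sums served as the library sizes, and CPM below means counts per 1000000 mature miRNA reads. A row without reads could hold up to 3 reads, or 0.128 to 0.150 CPM depending on the sample, which covers counting error only. Among cell type markers, the sertoli miRNAs miR-202-5p and miR-202-3p (reads for both in all samples except 4-NP replicate 3, where miR-202-3p had none) summed to 807 to 1195 CPM in controls and 698 to 796 CPM after 4-NP. The 2 endothelial markers summed to 6325 to 7615 CPM in controls and 3234 to 3805 CPM after 4-NP, and the 2 myoid markers to 120518 to 136205 and 88367 to 96674 CPM. Of the myoid pair, miR-145-5p overlapped (1947 to 2649 and 1504 to 2189 CPM). The germ cell miR-34c-5p had 3.59 to 7.54 CPM in controls and 12.3 to 14.1 CPM after 4-NP, while miR-449a-5p overlapped (114 to 129 and 92.4 to 119 CPM). Sums of myeloid markers (8.05 to 10.5 and 8.36 to 14.1 CPM) and striated muscle markers (14.0 to 19.5 and 13.2 to 14.8 CPM) overlapped. The erythroid miR-451-5p had 10.7 to 40.1 CPM in controls and 58.7 to 628 CPM after 4-NP, while its partner miR-144-5p was at 0 in 4 samples. Ribosomal RNA fragments summed to 2391 to 3050 CPM in controls and 5368 to 7383 CPM after 4-NP, and tRNA fragments to 282 to 471 CPM and 784 to 2099 CPM. The liver miRNA miR-122-5p had 0.0427 to 0.538 CPM in control samples and 0.271, 21.7 and 1.42 CPM in 4-NP replicates 1 to 3. The part of these shifts in the snoRNA values was not tested.

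The whole class of C/D box fragments had more reads after 4-NP, yet not in every sample. Summed over the 100 rows, the level was 1109, 1510 and 1617 CPM in control replicates 1 to 3, and 3235, 1265 and 1929 CPM in 4-NP replicates 1 to 3. The 4-NP samples 1 and 3 were above all controls, and 4-NP replicate 2 was below 2 of the controls, so the groups overlapped. The ratio of the group means was 1.52, and it was 1.13 without 4-NP replicate 1. As a share of all snoRNA reads, C/D box rows held 85.3, 86.7 and 88.4% in controls and 90.1, 82.8 and 86.6% after 4-NP. The share did not separate the groups either, and the ratio of its means was 0.997. The H/ACA box snoRNAs (SNORA), which guide pseudouridylation, summed to 36.4, 47.1 and 38.6 CPM in controls and 80.9, 49.3 and 46.4 CPM after 4-NP. Spliceosomal RNA fragments gave 327, 417 and 430 CPM against 814, 244 and 442 CPM, with 4-NP replicate 1 highest, as for C/D box rows, and 4-NP replicate 2 the lowest of the 6 samples.

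**Figure D1:**
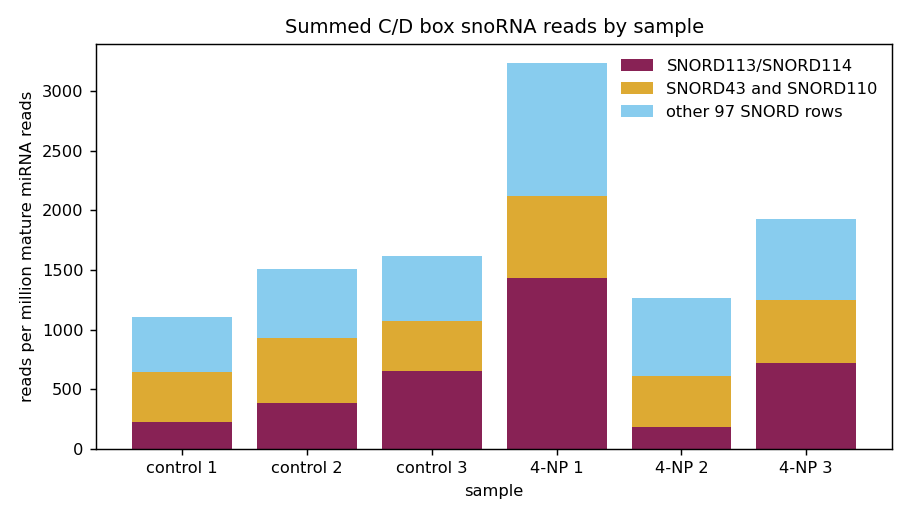
Summed C/D box snoRNA reads in each of the 6 samples (bars, in CPM, axis from 0), split into SNORD113/SNORD114, SNORD43 with SNORD110, and the other 97 rows. The bar of 4-NP replicate 1 reaches 3235, that of 4-NP replicate 2 (1265) lies among the controls (1109 to 1617), and the SNORD113/SNORD114 part differs most between samples.

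Much of this sum came from few rows. The 3 rows with the most reads, SNORD113/SNORD114, SNORD110 and SNORD43, held 48.6 to 66.2% of the C/D box reads of a sample, and the first 6 rows held 63.2 to 77.0%. Reads were not divided by length, so this is an order of reads and not of molecules. The row SNORD113/SNORD114, the orphan cluster of the imprinted Dlk1-Dio3 region, had 5233, 8956 and 14540 reads in controls and 31637, 3587 and 15848 reads after 4-NP. It varied within both groups, with its lowest and its highest value both in 4-NP samples, and the groups overlapped. It held 20.1, 25.7 and 40.3% of the C/D box reads in controls and 44.2, 14.2 and 37.5% with 4-NP. The fitted log2 fold change was 0.88 with a standard error (SE) of 0.73 (adjusted p = 0.416, edgeR quasi-likelihood test with Benjamini-Hochberg adjustment).

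The other abundant rows differed less. SNORD110, a guide for 18S rRNA that lies in Nop56, had 5154, 7067 and 5539 reads in controls and 8721, 4851 and 6907 after 4-NP (log2 fold change 0.30, SE 0.22). SNORD43, an 18S guide that lies in Rpl3, had 4766, 5517 and 3795 reads against 6560, 3863 and 4521 (log2 fold change 0.18, SE 0.22). Both had overlapping groups and adjusted p-values of 0.372 and 0.585 in edgeR. SNORD50, a 28S guide, gave 1759, 2477 and 1819 reads against 2271, 1735 and 1038, and SNORD15, a 28S guide in Rps3, gave 1205, 1254 and 946 against 1450, 1203 and 866. SNORD81, a 28S guide in Gas5, had 868, 1182 and 1109 reads in controls and 2169, 765 and 1176 after 4-NP. None of the 6 rows with the most reads passed the test on either scale used here, and each had overlapping groups on both.

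Per mature miRNA read, C/D box rows lay almost throughout on the higher side after 4-NP. Of the 100 rows, 85 passed the filter on low counts and were tested. A positive log2 fold change was found for 83 of these (97.6%, against 63.9% of all 1285 tested rows and 83.3% of SNORA rows). The median log2 fold change was 0.70, with quartiles of 0.42 and 0.96. It was 0.27 over all tested rows, 0.01 over the 549 mature miRNAs, 0.54 over the 24 SNORA rows, 0.89 over 9 spliceosomal RNA rows and 2.81 over 8 ribosomal RNA rows. The ribosomal RNA rows thus stood further up than the C/D box rows, and the SNORA rows came close to them. The 4-NP samples were all above the controls for 37 of the 85 rows (43.5%, against 28.6% of all tested rows), and all below for 0 (against 16.2%). For the 24 SNORA rows this was alike, with 9 all above (37.5%) and 0 all below.

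Fewer rows passed the test itself. At an adjusted p under 0.05 (edgeR quasi-likelihood test, Benjamini-Hochberg over the 1285 rows), 12 C/D box rows were higher after 4-NP and 0 lower. This is 14.1% higher, where 12.3% of all tested rows were higher and 9.42% lower. The share that was higher is thus near the share in the whole table. At an unadjusted p under 0.05, 37 rows were higher and 0 lower, against 23.7% and 12.8% of all rows. At a fold over 2 with that p, 16 rows were higher (18.8%, against 12.8% of all rows), and 0 were lower at a fold under 0.5 (against 9.03% of all rows). DESeq2 and limma gave 15 and 11 higher rows, and neither gave a lower one. Of the 24 SNORA rows, 0 passed in edgeR and 4 were higher at an unadjusted p under 0.05. The count of 12 varied with the samples used and was 2, 4 and 5 without control replicates 1, 2 and 3, and 3, 9 and 5 without 4-NP replicates 1, 2 and 3.

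The shift was not of the same size in the 3 treated samples. Over the 75 rows with a mean of at least 20 reads, the median log2 difference from the mean of the controls was 0.99 in 4-NP replicate 1, 0.34 in 4-NP replicate 2 and 0.58 in 4-NP replicate 3. In the controls it was -0.21, 0.11 and 0.13. The 4-NP replicate 1 was the highest of the 6 samples for 62 of the 75 rows and above all controls for 72. The 4-NP replicates 2 and 3 were above all controls for 40 and 55 rows, and control replicate 1 was the lowest sample for 46. Scaled to all snoRNA reads, the order of the treated samples turned, with medians of -0.17, 0.42 and 0.11. The row SNORD113/SNORD114 is part of that sum, and where it was high the share left to other rows was low.

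**Figure D2:**
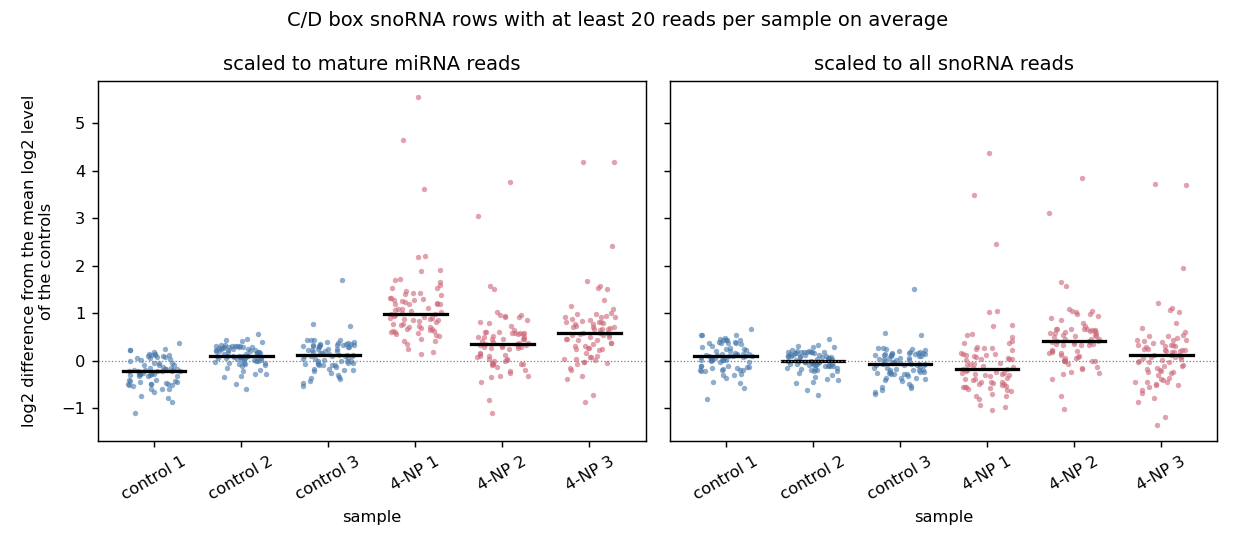
Each point is 1 of 75 C/D box rows in 1 of 6 samples, as its log2 difference from the mean of the controls, scaled to mature miRNA reads (left) or all snoRNA reads (right). Black lines are medians, which on the left are 0.99, 0.34 and 0.58 in the 4-NP samples and on the right -0.17, 0.42 and 0.11, with a few rows far above the others in every 4-NP sample.

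The second scale, per snoRNA read, asks which C/D box rows moved more than the class. On it, 3 rows were higher after 4-NP (SNORD26, SNORD27 and SNORD19) with 0 lower, by the same adjusted test in edgeR. This is 3.53% of the 85 rows, where 4.82% of all tested rows were higher and 8.72% lower. At an unadjusted p under 0.05, 4 were higher, the further one being SNORD82, and 0 were lower, against 7.24% and 15.9% of all rows. The count of 3 fell to 1 without control replicate 1, control replicate 2 or 4-NP replicate 1. The median log2 fold change was 0.17, against -0.23 over all tested rows and 0.08 over the SNORA rows. Of the 85 rows, 58 were above 0 (68.2%, against 36.9% of all rows and 54.2% of the SNORA rows). The median over all rows fell from 0.27 to -0.23 with the change of scale, so the share over all rows cannot show movement beyond the class. The groups did not overlap for 10 higher C/D box rows (11.8%, against 7.86% of all rows) and for 2 lower rows (2.35%, against 19.8%). The 2 lower rows were SNORD17 and SNORD78, of which SNORD17 was named after its values were seen.

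SNORD26, SNORD27 and SNORD19 stood apart from the other C/D box rows on both scales. Together they had 4.99, 4.85 and 7.22 CPM in controls and 199, 22.1 and 73.6 CPM after 4-NP. Their share of the snoRNA reads was 0.384, 0.278 and 0.395% in controls and 5.54, 1.45 and 3.30% after 4-NP. Each of the 4-NP samples was above all controls in both measures. The 3 rows were picked by their calls in these same samples, so their sum is no separate support.

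SNORD26, a guide for 28S rRNA, had 76, 73 and 109 reads in controls and 3834, 112 and 1468 reads after 4-NP. The 4-NP replicate 2 was only just above the highest control, and the other 2 treated samples were far above it. In CPM these were 3.24, 3.16 and 4.89 against 173, 5.59 and 67.05. The log2 fold change was 4.44 (SE 1.13, adjusted p = 0.0351 in edgeR) per mature read and 3.55 (SE 0.77, adjusted p = 0.0117) per snoRNA read. Per mature read the call was lost when any one sample other than 4-NP replicate 2 was omitted (edgeR, adjusted p = 0.0759 to 0.132). Per snoRNA read it was lost without control replicate 1 (0.0721), control replicate 2 (0.055) or 4-NP replicate 1 (0.0537).

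SNORD27, a guide for 18S rRNA, had 2, 3 and 16 reads in controls and 126, 62 and 91 reads after 4-NP. The treated samples were all well above the controls, of which the first 2 were within the limit of 3 reads, so the size of the change rests on few control reads. The row reached the filter on low counts through the treated samples, in which it was high, and a minimum of 10 reads in every sample leaves it untested. Without any filter its adjusted p in edgeR was 0.0141 per mature read and 0.00152 per snoRNA read. The log2 fold change was 3.79 (SE 0.71, adjusted p = 0.0134 in edgeR) per mature read and 3.30 (SE 0.63, adjusted p = 0.00601) per snoRNA read. Per snoRNA read the adjusted p stayed under 0.05 in each fit without 1 sample. Per mature read it was lost only without control replicate 2 (adjusted p = 0.0523 in edgeR).

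SNORD19, an 18S guide, had 39, 36 and 36 reads in controls and 441, 269 and 52 reads after 4-NP. The controls were nearly alike, 2 treated samples were far above them, and 4-NP replicate 3 was just above. The log2 fold change was 2.88 (SE 0.72, adjusted p = 0.0334 in edgeR) per mature read and 2.33 (SE 0.65, adjusted p = 0.0399) per snoRNA read. On the second scale the groups overlapped, as the shares were 0.128, 0.0895 and 0.0883% in controls and 0.555, 0.880 and 0.107% after 4-NP. Per mature read the call held only without 4-NP replicate 3, with adjusted p-values of 0.068 to 0.118 without any other sample. Per snoRNA read it was also lost without any one sample other than 4-NP replicate 3 (0.0921 to 0.135 in edgeR).

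The samples in which these rows were high were not the same. SNORD26 was lowest among the treated samples in 4-NP replicate 2, SNORD19 in 4-NP replicate 3, and SNORD27 had 62 to 126 reads in all of them. SNORD26 had 30.4 reads per SNORD27 read in 4-NP replicate 1, 1.81 in 4-NP replicate 2 and 16.1 in 4-NP replicate 3. In the controls that ratio was 38.0, 24.3 and 6.81.

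The rows of a known host gene can be set beside these. SNORD22 and SNORD25 to SNORD31 are known from the introns of Snhg1, a non-coding host gene whose introns hold the conserved part. In the rat assembly GRCr8, RefSeq places Snord26, Snord27, Snord28b and Snord30 within the gene LOC100912041. It places Snord22 within another gene, LOC102550021, and SNORD29 and SNORD31 were matched to no rat gene here. Of the 8 numbers of this list, 7 had a row and all 7 were tested. All 7 had a positive log2 fold change per mature read, 6 had an unadjusted p under 0.05, and 2 (SNORD26 and SNORD27) passed after adjustment in edgeR on either scale. Over all tested rows 63.9% were positive, 23.7% were higher at that unadjusted p and 12.3% after adjustment (4.82% per snoRNA read).

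SNORD28, an 18S guide, had 253, 226 and 229 reads in controls and 302, 276 and 292 after 4-NP. These were 10.8, 9.78 and 10.3 CPM against 13.6, 13.8 and 13.3 CPM, so the groups did not overlap but lay close together (log2 fold change 0.40, SE 0.15, adjusted p = 0.103 in edgeR). SNORD30, a 28S guide, had 82, 133 and 134 reads against 330, 125 and 190 (log2 fold change 0.97, SE 0.38, adjusted p = 0.120). SNORD22 had 94, 116 and 114 against 258, 100 and 128 reads (log2 fold change 0.67), and its groups overlapped. SNORD29, with 17 to 25 reads in controls and 31 to 50 after 4-NP, and SNORD31, with 29 to 42 against 40 to 75, had log2 fold changes of 0.96 and 0.74 and adjusted p-values of 0.0698 and 0.115 in edgeR.

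Reads per SNORD28 read need no library size. For SNORD26 this ratio was 0.300, 0.323 and 0.476 in controls and 12.7, 0.406 and 5.03 after 4-NP, so that by this measure 4-NP replicate 2 lay within the controls. For SNORD27 it was 0.00791, 0.0133 and 0.0699 against 0.417, 0.225 and 0.312, with all treated samples above all controls. For SNORD30 it was 0.324, 0.588 and 0.585 against 1.09, 0.453 and 0.651, and the groups overlapped. The ratio of group means was 16.5 for SNORD26, 10.5 for SNORD27, 1.47 for SNORD30, 1.46 for SNORD29, 1.27 for SNORD31 and 1.20 for SNORD22.

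SNORD19 shares the gene Gnl3, which encodes the nucleolar GTPase nucleostemin, with SNORD69, a 28S guide. SNORD69, named here as that neighbour after its values were seen, had 300, 347 and 435 reads in controls and 926, 373 and 563 after 4-NP. Its groups overlapped per mature read (log2 fold change 0.86, SE 0.33, adjusted p = 0.116 in edgeR). SNORD19 had 0.130, 0.104 and 0.0828 reads per SNORD69 read in controls and 0.476, 0.721 and 0.0924 after 4-NP. The first 2 treated samples were above the controls and the other lay within them. SNORD19B, an 18S guide named after its values were seen, had a rat gene for which no spanning gene was found. Its log2 fold change was 0.30 per mature read (SE 0.38), with overlapping groups. Per SNORD69 read, SNORD19B went the other way from SNORD19. It gave 1.18, 0.853 and 1.01 in controls and 0.740, 0.668 and 0.595 after 4-NP, with all treated samples below the controls.

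**Figure D3:**
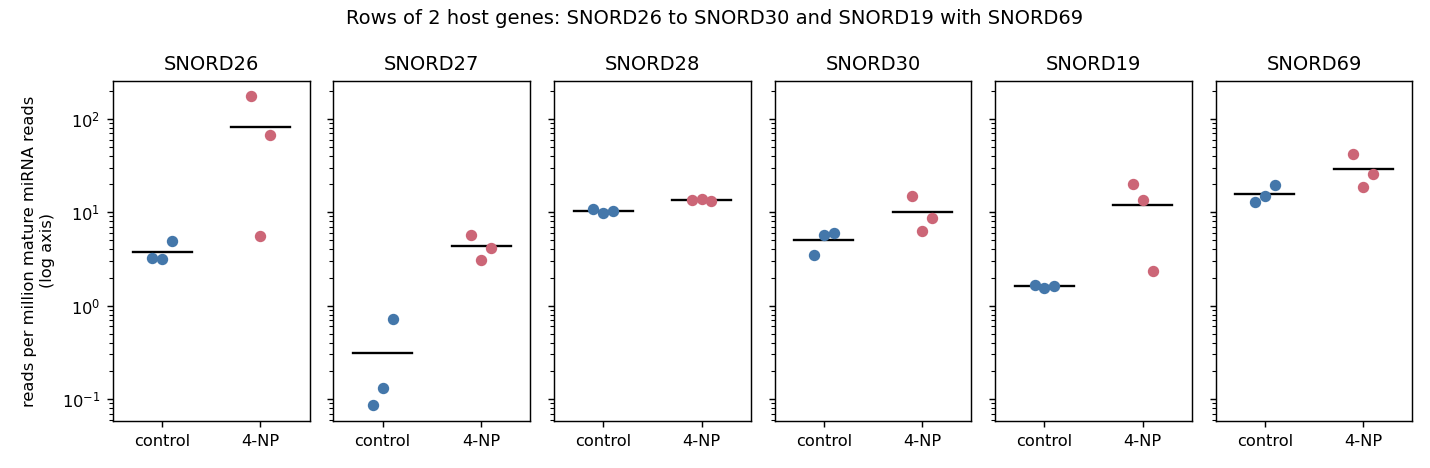
Level of 6 C/D box rows in CPM (log axis), with 1 point per sample (replicates 1 to 3 from left to right) and a line at the group mean. All treated points of SNORD26, SNORD27 and SNORD19 lie above their controls, most of them far above, while the points of SNORD28 and SNORD30 (within the gene of SNORD26) and of SNORD69 (within that of SNORD19) lie closer together.

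Of the 100 rows, 69 were matched by symbol to a rat gene in GRCr8 and 65 of them lie within another gene. Strands were not compared and every spanning gene was kept, so some of these genes may not be hosts. The first 30 bases around the annotated start of a host gene (15 before it and 15 from it on) are shown. LOC100912041 and Gnl3 hold the rows with the largest changes, SNORD26, SNORD27 and SNORD19. The other hosts hold SNORD110, SNORD43, SNORD15 and SNORD81, which had many reads and overlapping groups. Rows of a host can differ. SNORD57 and SNORD86 in Nop56, named after their values were seen, had log2 fold changes of 1.09 and 1.29 per mature read. SNORD28 in LOC100912041 had 0.40. Host genes of snoRNAs are known for pyrimidine-rich starts, and the capitals mark the longest run of C and T on the strand of the gene. The RefSeq sequences are from GRCr8.
LOC100912041, chr1:215048320-215048349, + strand, SNORD26, SNORD27, SNORD28 and SNORD30: gttgttcttttcggtctcaTTTTCCTTTgc
Gnl3, chr16:6219768-6219797, - strand, SNORD19 and SNORD69: ccgagacgggaaggtgtacctgagaCCTCT
Nop56, chr3:137930164-137930193, + strand, SNORD110, SNORD57 and SNORD86: ggCCTCCgcagtctggttccgcgcgccaga
Rpl3, chr7:113507976-113508005, - strand, SNORD43 and SNORD83: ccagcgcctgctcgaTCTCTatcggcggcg
Rps3, chr1:163195762-163195791, - strand, SNORD15: TTCCTTTCagcggcgcgcggcagcaagatg
Gas5, chr13:75836948-75836977, + strand, SNORD81 and SNORD78: cggCCTTTCggagctgtgaggcgaagctga
The longest run was 9 bases in LOC100912041 and 5 in Gnl3, against 8 in Rps3, 6 in Gas5 and 5 in both Nop56 and Rpl3. A run of at least 8 bases on the strand of the gene was in 12 of the 49 promoters of spanning genes with an entry (24.5%). It was in 11.4% of all 27457 promoters. On the other strand it was in 0 of the 49 and in 13.03% of all. SNORD26 and SNORD28, whose ratio lay above the controls in 4-NP replicates 1 and 3 only, have the same host start. Any link of these letters to the fragments was not tested.

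Beyond these 3 rows, the rises that passed the test were smaller (log2 fold changes of 0.71 to 1.60), and the rows passed it per mature read only. SNORD82, an 18S guide, had 11, 23 and 18 reads in controls and 54, 42 and 52 after 4-NP, with all treated samples above the controls. Its log2 fold change was 1.60 (SE 0.32, adjusted p = 0.0152 in edgeR) per mature read and 1.16 (SE 0.45, adjusted p = 0.143) per snoRNA read. The first call was lost without 4-NP replicate 3 (adjusted p = 0.0516). SNORD101 had 68, 65 and 82 reads against 181, 110 and 138 (log2 fold change 1.09, SE 0.23, adjusted p = 0.0195 in edgeR). SNORD11, an 18S guide, had 26, 24 and 20 reads against 61, 40 and 35 (log2 fold change 1.06, adjusted p = 0.0423). SNORD45, an 18S guide, had 41, 43 and 55 reads against 104, 79 and 81 (log2 fold change 1.02, adjusted p = 0.0207). SNORD55/SNORD39, a 28S guide, had 25, 42 and 28 reads against 64, 55 and 63 (log2 fold change 1.04, adjusted p = 0.0319). The groups did not overlap per mature read in any of these rows. Per snoRNA read they stayed apart for SNORD82 and SNORD101 and overlapped for SNORD11, SNORD45 and SNORD55/SNORD39. Each of these calls was lost in at least 1 fit without a single sample: SNORD101 without control replicate 1 or 2 (0.0762 and 0.0768), SNORD45 without these or 4-NP replicate 1 (0.0589 to 0.081), SNORD55/SNORD39 without any sample but control replicate 2 (0.0594 to 0.0917) and SNORD11 without any but 4-NP replicate 3 (0.0717 to 0.113, all edgeR). The call of SNORD11 was also lost in DESeq2 (adjusted p = 0.0795), and those of SNORD11 (0.0895) and SNORD55/SNORD39 (0.065) without a filter on low counts in edgeR. The remaining 4 of the 12 called rows, named after their values were seen, were SNORD20, SNORD24, SNORD99 and SNORD104, with log2 fold changes of 0.96, 1.00, 0.87 and 0.71.

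**Figure D4:**
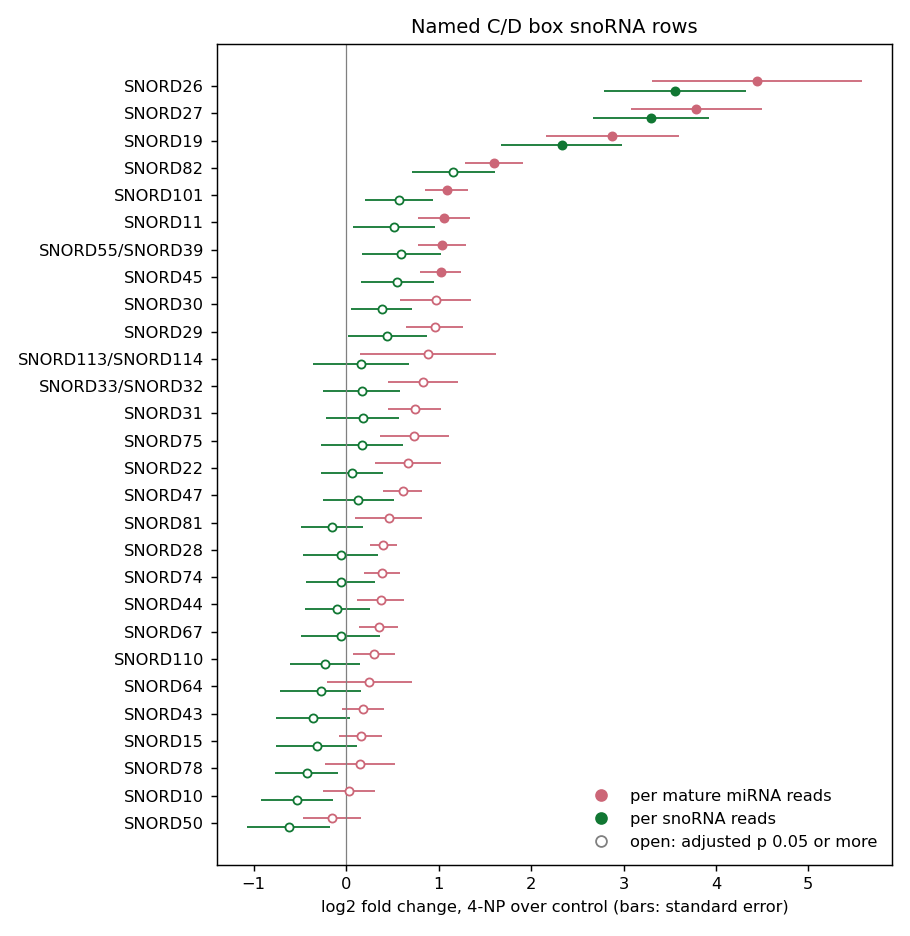
Log2 fold change (4-NP over control) of 28 named C/D box rows from edgeR, with its standard error, per mature miRNA read (red) and per snoRNA read (green); filled points have an adjusted p under 0.05. SNORD26, SNORD27 and SNORD19 are filled on both scales (2.33 to 4.44), 5 further rows per mature read only, and the green points of most rows lie near 0.

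By role, the guides for the large ribosomal RNAs had medians not far from that of all C/D box rows. Of 29 tested guides for 18S rRNA, 6 were higher in edgeR, 0 were lower and 28 had a positive log2 fold change, with a median of 0.58 per mature read. Of 34 tested guides for 28S rRNA, 4 were higher, 0 were lower and 33 were positive, with a median of 0.72. Over all tested rows 12.3% were higher and 63.9% positive, so the count for 28S guides is near that share. Per snoRNA read the medians were 0.14 and 0.17, and 2 and 1 rows passed. The 13 tested rows in none of the lists used had a median of 0.81 per mature read, with 2 higher. All these lists lay above the median of all tested rows, 0.27.

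The 3 guides for spliceosomal RNA were all tested. SNORD10, with 164, 186 and 112 reads in controls and 201, 114 and 125 after 4-NP, gave a log2 fold change of 0.03 (SE 0.28), and SNORD67, with 62, 66 and 84 reads against 86, 87 and 79, one of 0.35 (SE 0.21). Both had overlapping groups. The third, SNORD94, had 4, 8 and 2 reads against 15, 10 and 27 and an unadjusted p of 0.024 in edgeR (adjusted p = 0.0859). None of the 3 passed after adjustment.

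Gas5, a growth-arrest gene whose introns hold many C/D box snoRNAs, gave rows of which none passed the test. Of 8 rows, 6 were tested, 0 passed in edgeR and 1 (SNORD47) had an unadjusted p under 0.05, with a median log2 fold change of 0.43 per mature read and -0.08 per snoRNA read. SNORD74 had 276, 387 and 334 reads in controls and 469, 373 and 377 after 4-NP (log2 fold change 0.39, SE 0.19, adjusted p = 0.199). SNORD44 had 172, 251 and 289 reads against 340, 223 and 303, SNORD47 had 56, 65 and 70 against 111, 80 and 82, and SNORD75 had 70, 73 and 47 against 103, 51 and 144. SNORD78 had 80, 113 and 135 reads against 177, 68 and 100, with groups that overlapped per mature read but not per snoRNA read, and its log2 fold change was 0.15 per mature read and -0.43 per snoRNA read. Per SNORD74 read, SNORD44 gave 0.623, 0.649 and 0.865 in controls and 0.725, 0.598 and 0.804 after 4-NP, a ratio of means of 0.995. The same ratio was 1.03 for SNORD81 and 0.837 for SNORD78.

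Of the 3 rows known from introns of the ribosomal protein gene Rpl13a, 2 were tested and 0 passed in edgeR (0 also at an unadjusted p under 0.05). The row of SNORD33 and SNORD32 had 45, 30 and 29 reads in controls and 88, 33 and 53 after 4-NP (log2 fold change 0.83, SE 0.38, adjusted p = 0.164), and the groups overlapped per mature read. Of the 5 rows of imprinted orphans, 3 were tested and 0 passed in edgeR (0 also at an unadjusted p under 0.05). SNORD64, of the Snurf-Snrpn region, had 15, 41 and 33 reads against 45, 19 and 36 and a log2 fold change of 0.25 (SE 0.46). SNORD115 and SNORD109A, from the same region, had at most 1 read in any sample, which is too few reads to detect a difference.

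The 15 rows that were not tested had few reads, and 5 of the 100 rows had at most 3 reads in every sample. Of the tested rows, 76 had at least 10 reads in every sample. For 3 tested rows (SNORD27, SNORD35 and SNORD94) the treated samples all had 10 or more reads and a control had fewer, and these could pass the filter on low counts through the treated group.

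A second deposited column per sample, named for molecular identifiers (short random tags that tell original molecules from PCR copies), gave smaller changes for the 3 rows that stood apart. What its values count is not given in the sources used here. They never exceeded the read count (10168 of 10168 values with reads) and were 1 for 3837 of 3942 mature miRNA values, so they are no plain number of molecules. For SNORD26 this column held 24, 28 and 27 in controls and 97, 31 and 57 after 4-NP, a ratio of means of 2.34. The reads per unit of it were 3.17, 2.61 and 4.04 in controls and 39.5, 3.61 and 25.8 after 4-NP, highest in the samples with the most reads. For SNORD27 the column held 2, 3 and 6 against 21, 10 and 15 (ratio 4.18), with no overlap. For SNORD19 it held 20, 22 and 19 against 42, 32 and 19 (ratio 1.52), with overlap. For SNORD28 the reads per unit were alike in both groups, at 6.11 to 7.67 in controls and 5.73 to 6.73 after 4-NP. Summed over C/D box rows the column gave 2289, 2548 and 2711 in controls and 4167, 2750 and 3274 after 4-NP, so that here the treated samples were all above the controls. The same held for the SNORA rows, with 292, 337 and 356 in controls and 520, 363 and 372 after 4-NP. These sums were not scaled to a library size.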

How the data were processed

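Primary rat sertoli cells with and without 4-NP were compared (3 samples each). The authors cut RNA of 18 to 30 nt from a gel, ligated adapters with molecular identifiers, amplified and sequenced it, and deposited 1 table of read counts per small RNA and sample, not normalized. The submitters' processing notes name HISAT2 and DESeq2. The genome build, the snoRNA database release and the rule that assigned reads to a class are not given in the sources used here. The deposited table also has a score per small RNA and sample, named for the identifiers, which the authors do not define. It entered no test. Treated columns were matched to samples by their number.

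The 4 rows of totals name no RNA, made up 3.52 to 5.91% of the counted reads and were left out. All other rows were fitted with edgeR 4.0.16 (R 4.3.3), with its quasi-likelihood F test (two-sided, no block, filterByExpr, 1285 rows tested). Library sizes were the summed mature miRNA counts or the summed snoRNA counts, with factors of 1. Benjamini-Hochberg adjustment ran over all tested rows, and standard errors were derived from each fold change with its F statistic. The procedure was tested on simulated data, scaled to mature miRNA reads only. Their spread was lower than the one fitted here (common dispersion 0.154 per mature read), so that run does not measure the error rate of these calls.

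Named were the 6 rows with the most reads, up to 8 largest rises and falls per mature read and up to 5 per snoRNA read (adjusted p under 0.05, no overlap, mean of at least 20 reads), and all rows with that mean in the lists of imprinted, Gas5, Snhg1, Rpl13a and spliceosomal RNA guides. A list of U3, U8 and U13 had no row with a SNORD name. The members, lists and tests were chosen with earlier results of these data known. Replicates of a group differed by more than counting error (chi-square per degree of freedom of 5.72 to 112 over C/D box rows). Gene names, spanning genes (by position, without regard to strand) and promoters came from RefSeq (GRCr8). Alternatives included DESeq2 1.42.0 and limma 3.58.1. Figures were drawn with matplotlib 3.10.9.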

Additional observations from a re-analysis of the deposited data

How the results depend on the processing

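The 12 higher rows per mature miRNA read became 7 without a filter on low counts and 2 to 9 when 1 sample was left out. Between 11 and 15 rows were found with DESeq2, limma, and TMM and RLE factors. That range also held for scaling to all reads that name an RNA or without miR-21-5p, a minimum of 10 reads and a fit of the other small RNAs alone. Per snoRNA read, the 3 higher rows became 1 with limma, 1 in a fit of snoRNA rows only and 1 to 3 when 1 sample was left out. In every setting run, 0 C/D box rows were lower on either scale. The ratio of the summed share of snoRNA reads was 1.06 with the most abundant row left out of the snoRNA sum and 0.947 with it left out of the C/D box sum. SNORD26 lost its call per mature read with limma (adjusted p = 0.0829) and SNORD19 did so too (0.0708). Per snoRNA read, SNORD82 passed only with the most abundant row left out of the snoRNA sum (edgeR, adjusted p = 0.0426).

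Samples of the 2 groups share the numbers 1 to 3, and no label says whether same-numbered samples belong together. Their deviations from the group means had correlations of -0.17, -0.16 and 0.09 over all tested rows. Over the tested C/D box rows these were -0.24, 0.25 and 0.24. So few samples cannot decide whether the numbers mark pairs. With a replicate block, 2 rows were higher per mature read (SNORD27 and SNORD37, the latter named after its values were seen) and 3 per snoRNA read.

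Few reads limit these results, as for SNORD27 with at most 3 reads in 2 controls, and 15 rows were not tested. Each group has 3 samples, and the reads were not collapsed to molecules.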
